A study of Mus musculus with 9 samples.

Results

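The comparison described here sets the cochlea of 8-month-old mice (Age8) against the cochlea of 2-month-old mice (Ctrl). Its members are the 3 Age8 and the 3 Ctrl libraries, 6 of the 9 RNA-seq libraries of the study, chosen by their labelled age. The other 3 libraries, from 12-month-old mice (Age12), entered the fits, where they share the estimate of the spread and, at equal shares, also help to set the slopes on the shares, and their levels are given in places for orientation. All mice were C57BL/6J, an inbred strain that loses hearing with age, and carried no transgene or deletion that the sources name. By the study's methods, mice of each age had a hearing test with tones under sodium pentobarbital and were then killed with an overdose of it, after which the cochleae were frozen. Mice of both sexes were kept, and neither the sex behind each library nor a pooling of mice was stated, so p-values measure the spread between these libraries, which may be technical. The question was which genes, tissues and functions were higher or lower at 8 months, and which differences were still present once the libraries' different content of skeletal muscle and gland was taken into account. Genes on chrX and chrY, 1025 of the 32066 in the count table, were left out, and 18652 of the others had enough counts to be tested.

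The cochlea is a coiled duct inside the petrous bone. Hair cells on its sensory epithelium turn sound into nerve signals, supporting cells hold them in place, the stria vascularis and the fibrocytes of the spiral ligament keep the fluid around them rich in potassium, and spiral ganglion neurons carry the signal to the brain. Bone, marrow, the muscles and mucosa of the middle ear, and glands of the head lie close to it, and RNA of such neighbours enters a whole-cochlea preparation according to how closely it was dissected. In bulk RNA, fewer cells of a type and less RNA per cell cannot be told apart.

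Promoters of 4 genes from groups that differed are shown for orientation. They are the 250 bases in GRCm39 before the start of the transcript that the annotation marks as canonical. For Acta1, Dmp1 and Ciart these bases lie inside the annotated gene, which other transcripts extend further. Capitals mark a motif found by a search of both strands. They are the E-box CAGCTG, read by myogenic factors, in the promoter of Acta1, the skeletal muscle actin (chr8:124621687-124621936, minus strand). They are the RUNX site AACCACA in that of Dmp1, a matrix protein of osteocytes (chr5:104350226-104350475, plus strand), and the heat shock element unit GAANNTTC in that of Hspa1a, an inducible chaperone (chr17:35191133-35191382, minus strand). In that of Ciart, a repressor of the circadian clock (chr3:95789557-95789806, minus strand), they are the clock E-box CACGTG, present 3 times.
Acta1: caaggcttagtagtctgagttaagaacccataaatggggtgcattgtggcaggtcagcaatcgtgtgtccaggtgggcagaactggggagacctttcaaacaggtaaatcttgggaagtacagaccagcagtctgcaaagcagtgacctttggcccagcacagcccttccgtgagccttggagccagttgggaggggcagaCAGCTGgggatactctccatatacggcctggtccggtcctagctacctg
Dmp1: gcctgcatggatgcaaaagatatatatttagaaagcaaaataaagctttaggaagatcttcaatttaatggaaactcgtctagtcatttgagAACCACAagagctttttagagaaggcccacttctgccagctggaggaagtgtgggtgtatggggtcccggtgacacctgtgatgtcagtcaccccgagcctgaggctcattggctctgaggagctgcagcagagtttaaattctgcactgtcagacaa
Hspa1a: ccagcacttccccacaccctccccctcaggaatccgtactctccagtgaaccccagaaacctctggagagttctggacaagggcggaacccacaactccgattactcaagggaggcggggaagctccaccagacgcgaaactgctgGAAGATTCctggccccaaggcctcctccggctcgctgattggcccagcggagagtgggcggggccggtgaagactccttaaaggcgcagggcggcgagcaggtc
Ciart: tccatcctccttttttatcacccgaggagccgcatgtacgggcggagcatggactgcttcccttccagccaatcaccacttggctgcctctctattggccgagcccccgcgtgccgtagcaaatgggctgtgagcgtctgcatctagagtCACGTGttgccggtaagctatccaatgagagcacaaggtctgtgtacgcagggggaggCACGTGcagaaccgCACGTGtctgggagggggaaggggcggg

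CAGCTG was found in 8 of the 25 promoters of the fast skeletal muscle list and in 11.6% of 20621 promoters of protein-coding genes. AACCACA was found in 3 of 17 promoters of bone forming cell genes against 4.29% of all promoters, GAANNTTC in 7 of 13 promoters of heat shock genes against 6.4%, and CACGTG in 4 of 15 promoters of clock genes against 6.31%. In the fast muscle list TATAAA was found in 5 promoters (12% of all) and the MEF2 site in 1 (3.27% of all). A match is a description of these letters and not a binding site.

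Several properties of the libraries bear on every result. Total counts ranged from 26473126 to 34382753 in Age8 and from 32469000 to 33045923 in Ctrl. A list of 25 fast skeletal muscle genes held 1.37%, 8.14% and 4.47% of the counts in Ctrl replicates 1, 2 and 3 and 19.7%, 12.2% and 16% in Age8 replicates 1, 2 and 3. Both gland lists together held 13.7%, 12.5% and 12.8% in Ctrl and 7.39%, 0.134% and 3.61% in Age8. For both measures the groups did not overlap, and the two-sided exact permutation test gave p = 0.1, the smallest that 3 against 3 libraries allow. Markers of 5 cochlear cell types held 0.415%, 0.225% and 0.328% in Ctrl and 0.0636%, 0.498% and 0.278% in Age8 (exact p = 0.9), and markers of neurons and spiral ganglion neurons held 0.321%, 0.325% and 0.322% in Ctrl and 0.0135%, 0.353% and 0.186% in Age8 (exact p = 0.4). Age8 replicate 1 thus stood apart by its low cochlear and neuronal markers, and values without it are given beside many of the lists. Of the lists not described further, basal and keratinised epithelium went from a median of -0.69 to -1.74 without it and brain tissue from -0.55 to -0.01.

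**Figure D1:**
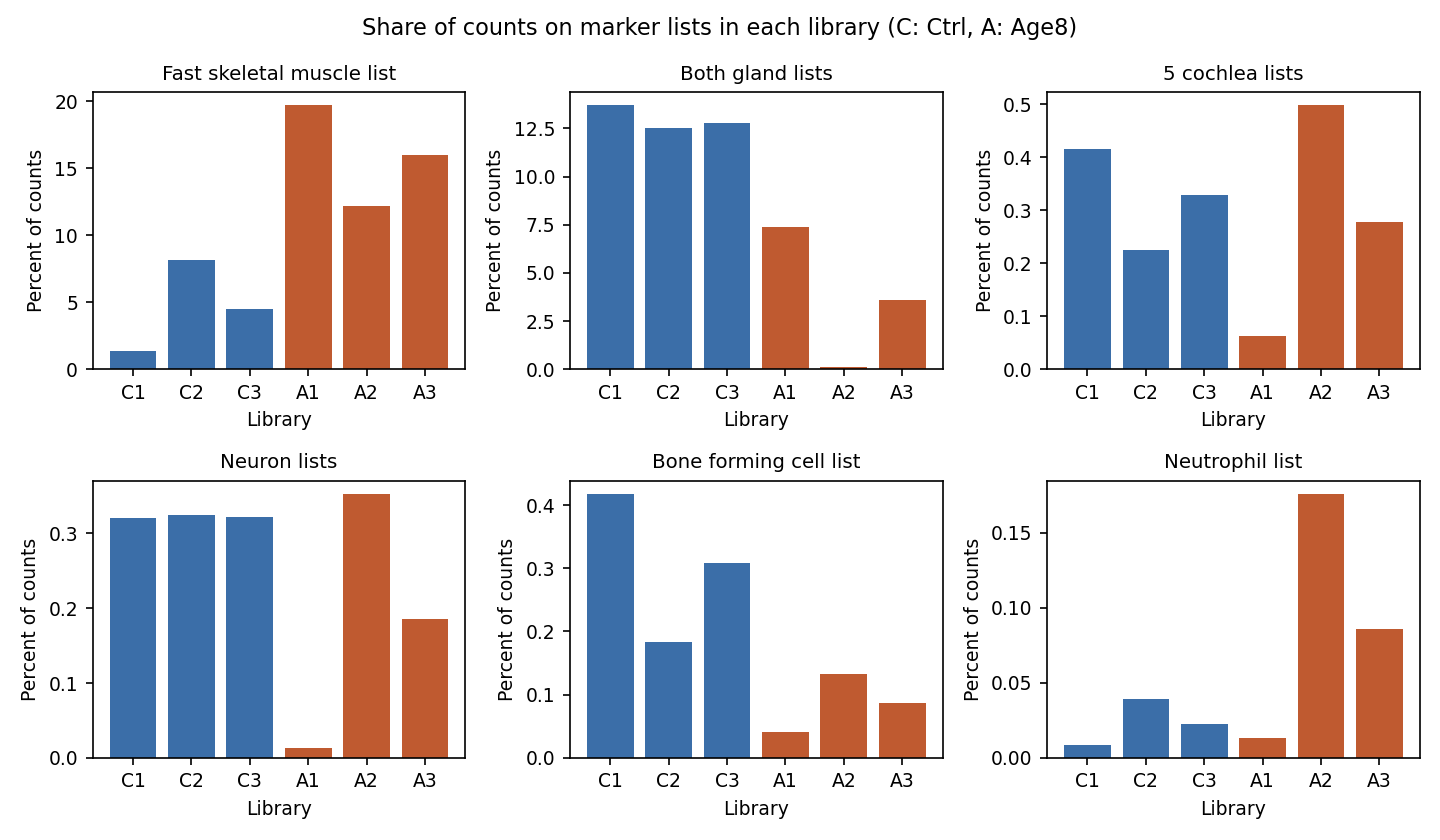
Percent of all counts held by each marker list in Ctrl replicates 1 to 3 (C1 to C3, blue) and Age8 replicates 1 to 3 (A1 to A3, orange), 1 bar per library. The muscle bars of Age8 (12.2% to 19.7%) stand above those of Ctrl (1.37% to 8.14%), the gland bars below, and the neuron bar of Age8 replicate 1 is at 0.0135%.

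Replicate 3 of each group was close to a mixture of the other libraries. A weighted mean of 54% replicate 1 and 46% replicate 2 left a spread of 0.111 (SD of log2 ratios, 12681 genes of at least 5 CPM) around Ctrl replicate 3, whereas replicates 1 and 2 differed from each other with an SD of 0.82. In Age8 the weights were 52% and 48%, and the SDs were 0.104 and 1.36 over 11416 genes. The median chi-square of replicate 3 against the mixture was 1.29 in Ctrl and 1.09 in Age8, above the 0.455 of sampling alone and far below the 24.4 and 81.5 between replicates 1 and 2. Replicate 3 was kept as labelled, and counts without it are given below. Age12 replicates 2 and 3 were also alike, with 8% and 8.11% of counts on the fast muscle list, against 9.99% in replicate 1. Both gland lists held 5.48% and 5.42% there, against 0.0668% in replicate 1. Since such libraries may not be independent, SEs and adjusted p may understate the spread, including at equal shares. The sex-linked genes differed as well, since the Y-linked gene Eif2s3y had 0.418, 0.123 and 0.0585 CPM in Ctrl and 30, 42.4 and 40.3 CPM in Age8. Age and the sex-linked pattern of the libraries cannot be told apart in this comparison.

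Differential expression was tested with edgeR's quasi-likelihood test on the counts, with Benjamini-Hochberg adjustment, and a gene was called a DEG (differentially expressed gene) where its adjusted p did not exceed 0.05 and its level differed by 2-fold or more. Of 18652 genes, 2441 were DEGs, which is 13.1% of those tested. A fit of the 6 Ctrl and Age8 libraries alone gave 1431. Leaving out Ctrl replicate 3 gave 1306, and leaving out Age8 replicate 3 gave 1468. In Age8, 1272 were up-regulated (6.82%) and 1169 were down-regulated (6.27%). The median log2 fold change over all genes tested was -0.116. Levels are given as CPM, the counts of a gene per 1e6 counts of the library, scaled with edgeR's TMM factors, in the order of replicates 1, 2 and 3, and are compared between libraries and not between genes. In the FPKM deposited by the authors, all 1272 and all 1169 DEGs had the same direction. A test by limma on log2(FPKM + 1) shifted the median of all genes to -0.213 and called 455 genes up-regulated and 939 down-regulated, with the test, the unit and the scaling changed together. With replicates 1 and 2 of each group only, edgeR called 0 genes (smallest adjusted p 0.263, with 3192 of 18740 genes at an unadjusted p under 0.05) and DESeq2 called 1007.

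The 12 largest rises among protein-coding DEGs whose groups did not overlap included genes of muscle and of other tissues. Mss51, a mitochondrial protein of skeletal muscle, had 20.8, 8.93 and 14.3 CPM in Ctrl and 373, 149 and 225 CPM in Age8 (17-fold higher, log2 fold change 4.08, SE 0.43, adjusted p = 0.00209). Sim1, a transcription factor of the hypothalamus, had 0.0836, 0.399 and 0.555 CPM in Ctrl and 5.26, 4.34 and 4.95 CPM in Age8 (log2 fold change 3.80, SE 0.56, adjusted p = 0.00414). Slc38a4, an amino acid transporter, had 3.51, 14.2 and 8.86 CPM in Ctrl and 132, 59.1 and 86.5 CPM in Age8 (log2 fold change 3.38, SE 0.51, adjusted p = 0.00431). All 3 were highest in Age8 replicate 1. Cd27, a receptor of lymphocytes whose gene overlaps Vamp1, a synaptic protein gene, had 0.529, 0.399 and 0.555 CPM in Ctrl and 18.3, 8.5 and 11.7 CPM in Age8 (log2 fold change 4.68, SE 0.34, adjusted p = 0.00117). The largest falls were salivary, pituitary and mucosal genes, described with their tissues.

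To ask which differences were present at equal tissue shares, the same test was run with 2 further terms, the log2 of the fast muscle share and the log2 of the gland share of each library. This fit estimates how each gene follows the shares within the age groups and then compares the groups at the same shares. Since the shares of the groups did not overlap, the comparison reaches beyond the range measured in either group, and the median SE ratio between the fits was 1.52. It called 129 genes (0.692% of those tested), 38 of them up-regulated (0.204%) and 91 down-regulated (0.488%), and 96 of the 2441 DEGs were called in the same direction in both fits. This number was not stable, as described at the end. Fold changes at equal shares are therefore given beside the calls, and those of some lists and genes also moved with the way the shares were entered.

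Genes of skeletal muscle were higher in Age8. Of the 53 gene lists examined, sarcomere and triad structure had the highest share of up-regulated genes, 21 of 25, with a median log2 fold change of 2.13. In the fast muscle list 17 of 25 genes were up-regulated and 0 down-regulated, beside 6.82% and 6.27% of all genes, and the median log2 fold change was 2.35. Without Age8 replicate 1 it was 10 of 25, beside 6.5% of all genes in that fit. In 21 of the 25 the groups did not overlap with Age8 higher, as in 20.7% of all genes. Slow muscle gave 4 of 15 up-regulated genes with a median of 2.02, and muscle stem cells and myogenesis 3 of 8 with a median of 1.68. At the neuromuscular junction 2 of 8 genes rose and the median was 0.40, or 0.07 without Age8 replicate 1.

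Acta1, the actin of skeletal muscle thin filaments, had 1268, 8311 and 4273 CPM in Ctrl and 45990, 15320 and 26610 CPM in Age8 (6.35-fold higher, log2 fold change 2.67, SE 0.77, adjusted p = 0.0352). All Age8 libraries exceeded all Ctrl libraries. Within each group the levels followed the order of the muscle shares, to which Acta1 itself contributes as a member of the list. Myl1, a fast myosin light chain, had 396, 1485 and 867 CPM in Ctrl and 10710, 3305 and 5874 CPM in Age8 (7.24-fold higher, log2 fold change 2.86, SE 0.60, adjusted p = 0.0115), again without overlap. Myh4, the fastest of the adult myosin heavy chains, had 1444, 8350 and 4638 CPM in Ctrl and 30580, 12090 and 19590 CPM in Age8 and missed the threshold (adjusted p = 0.0523), although its groups did not overlap either. Atp2a1, the calcium pump of fast fibres, had 1630, 14670 and 7236 CPM in Ctrl and 43920, 16800 and 26480 CPM in Age8 and an adjusted p of 0.112.

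Mb, the oxygen store myoglobin, had 525, 829.6 and 614 CPM in Ctrl and 4718, 2193 and 3093 CPM in Age8 (5.08-fold higher, log2 fold change 2.35, SE 0.33, adjusted p = 0.00386). Neb, the ruler of the thin filament, had 88.3, 284 and 205 CPM in Ctrl and 1415, 981 and 1125 CPM in Age8 (6.1-fold higher, log2 fold change 2.61, SE 0.40, adjusted p = 0.00436). Both kept their groups apart. Myod1, the transcription factor that commits cells to the muscle lineage, had 3.65, 7.06 and 5.44 CPM in Ctrl and 48, 23.4 and 32.6 CPM in Age8 (log2 fold change 2.69, SE 0.32, adjusted p = 0.00269). Dok7, which assembles acetylcholine receptors under the nerve ending, had 4.4, 7.55 and 6.25 CPM in Ctrl and 23.9, 16.5 and 18.3 CPM in Age8 (log2 fold change 1.69, SE 0.22, adjusted p = 0.00335). The receptor subunit Chrna1 had 3.54, 8.56 and 6.11 CPM in Ctrl and 14.1, 6.49 and 8.73 CPM in Age8, with overlapping groups and an adjusted p of 0.198.

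Genes of energy metabolism were higher as well, and the part of the muscle share in this was examined only by the fit at equal shares. In glycolysis 8 of 14 genes were up-regulated and 0 down-regulated, beside 6.82% and 6.27% of all genes, with a median log2 fold change of 1.32. These were Aldoa, Pfkm, Pkm, Gapdh, Ldha, Tpi1, Gpi1 and Hk2. Aldoa, which splits fructose bisphosphate, had 2141, 7090 and 4236 CPM in Ctrl and 32980, 12840 and 19810 CPM in Age8 (log2 fold change 2.29, SE 0.60, adjusted p = 0.0249). Hk2, the hexokinase of muscle, had 62.9, 129.9 and 93.7 CPM in Ctrl and 484, 249 and 341 CPM in Age8 (log2 fold change 1.91, SE 0.32, adjusted p = 0.00575). In both genes the lowest Age8 library was still above the highest Ctrl library.

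In the tricarboxylic acid cycle 5 of 16 genes were up-regulated with a median of 0.93, and among the nuclear genes of oxidative phosphorylation 37 of 74 with a median of 1.01, beside 6.82% of all genes. Atp5f1b, the catalytic subunit of ATP synthase, had 1119, 1187 and 1139 CPM in Ctrl and 3186, 1878 and 2264 CPM in Age8 (log2 fold change 1.09, SE 0.24, adjusted p = 0.0138). Without Age8 replicate 1, the library with most muscle, 8 of these 74 genes were up-regulated, beside 6.5% of all genes in that fit. The median of the 74 was then 0.73. Of the 16 genes of the tricarboxylic acid cycle edgeR called 0 in that fit, with 14 at an unadjusted p under 0.05. Their median was 0.77, and the lowest adjusted p was 0.00621, at a fold change under 2. The mitochondrial genome itself held 9.03%, 6.77% and 8.11% of the counts in Ctrl and 11.3%, 12.3% and 12.7% in Age8 (exact p = 0.1).

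Fatty acid oxidation gave 1 gene in each direction among 18. Cpt1b, the muscle form of the enzyme that passes fatty acids into mitochondria, rose from 91.3, 87.1 and 81.6 CPM to 291, 137 and 201 CPM (log2 fold change 1.27, SE 0.25, adjusted p = 0.00939), while Cpt1a, the form of liver and most other tissues, fell from 44.8, 40.9 and 47.1 CPM to 16.6, 20.1 and 19.7 CPM (log2 fold change -1.23, SE 0.12, adjusted p = 0.00193). Cytosolic ribosomal proteins had a median of 0.24, and the single DEG of 79 was Rpl3l, the muscle form of Rpl3, with 38, 171 and 100 CPM in Ctrl and 716, 303 and 449 CPM in Age8 (log2 fold change 2.25, SE 0.53, adjusted p = 0.017). Rbm24, an RNA-binding protein that directs splicing in muscle, had 13.5, 28.4 and 25.4 CPM in Ctrl and 126, 76.7 and 89.3 CPM in Age8 (log2 fold change 2.12, SE 0.29, adjusted p = 0.00371).

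At equal muscle and gland shares the muscle medians shrank. They were 0.47 for fast muscle, 0.47 for sarcomere and triad, -0.13 for slow muscle and 0.51 for myogenesis, beside 0.009 for all genes. With the shares in percent they turned to -0.82 for sarcomere and triad and -0.57 for myogenesis, and slow muscle was at -1.41. Members of the fast muscle list supplied the share and are not judged by this fit. In the other muscle lists 1 gene was called, Neb (log2 fold change 1.39, SE 0.17, adjusted p = 0.0378), and 15 of the 25 sarcomere and triad genes had an unadjusted p under 0.05. The medians of glycolysis and the tricarboxylic acid cycle were 0.73 and 0.88 at equal shares, and edgeR called 0 of their genes, with 6 in each list at an unadjusted p under 0.05. With the shares in percent these medians were 0.20 and 0.62. For the nuclear genes of oxidative phosphorylation the median was 0.63 at equal shares and 0.43 with the shares in percent, and edgeR called 0 of the 74, with 20 at an unadjusted p under 0.05.

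**Figure D2:**
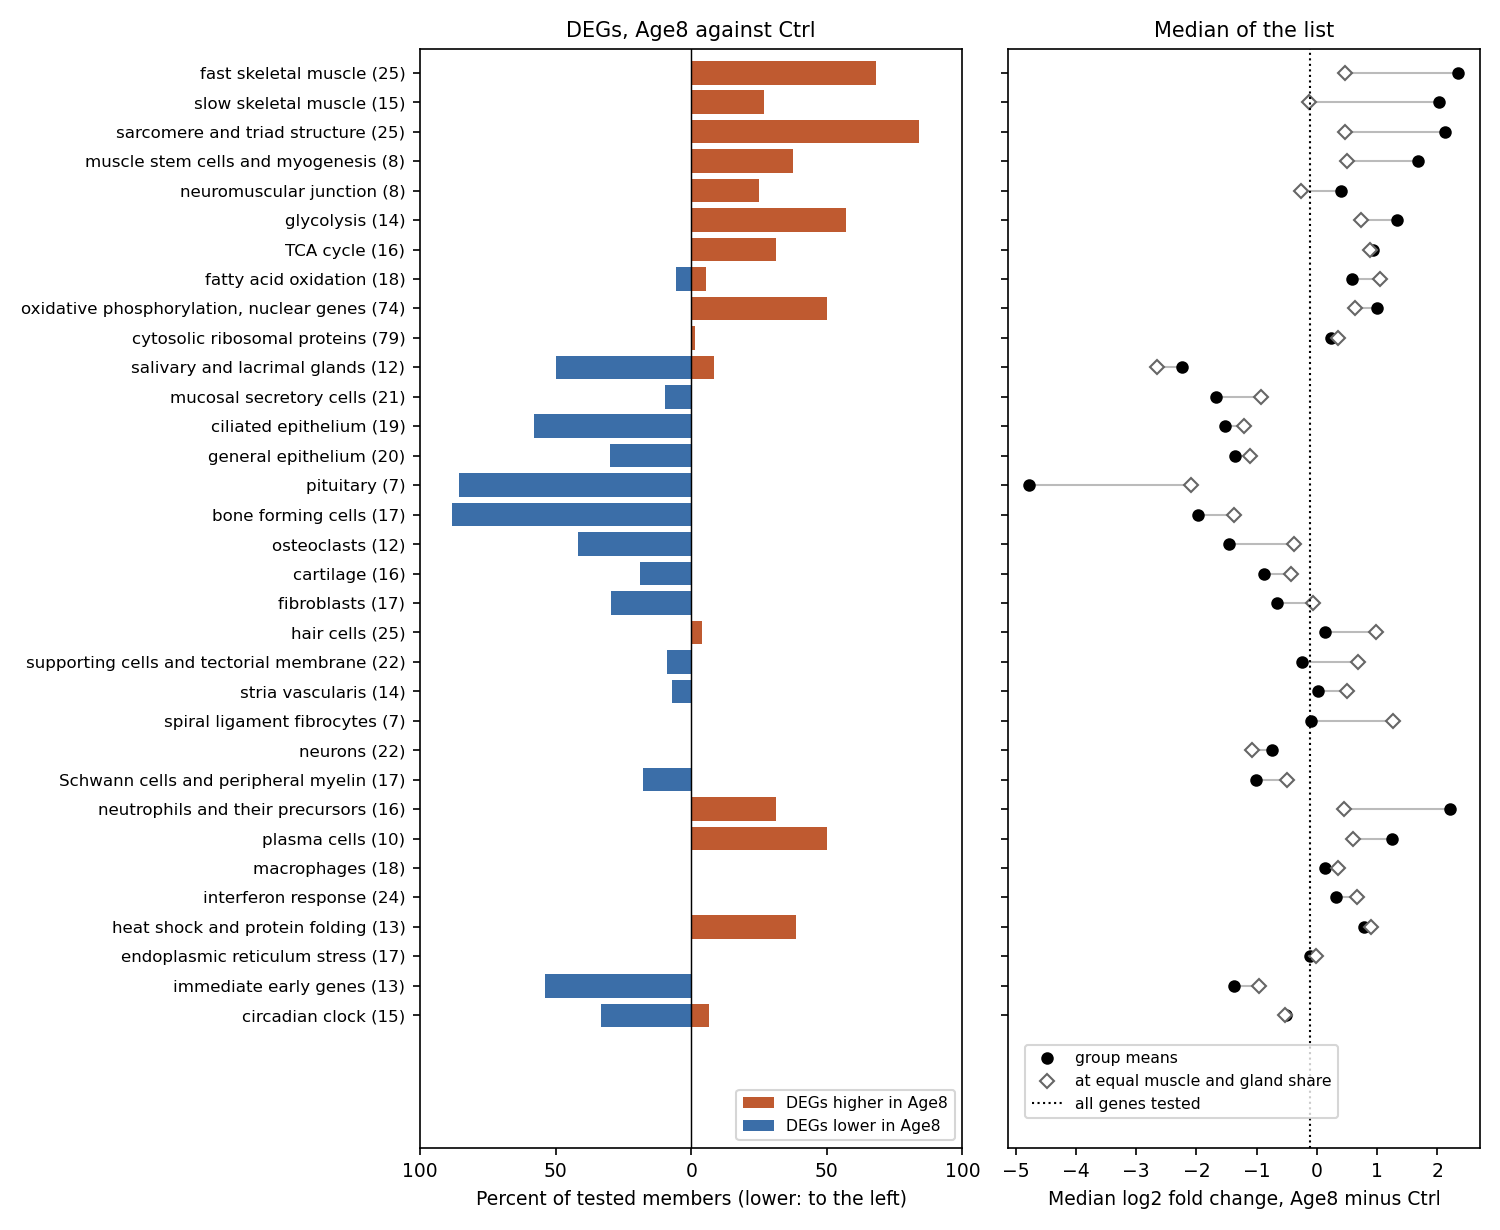
Left, percent of the tested members of each list (number in parentheses) that were DEGs, higher in Age8 to the right and lower to the left. Right, median log2 fold change of the members from the group means (filled) and at equal muscle and gland shares (open), with the median of all genes tested dotted. The lists of slow muscle and of sarcomere and triad move from about 2 toward 0. So does fast muscle, which supplied the share and, like the gland lists, is not judged at equal shares. Bone, ciliated epithelium and immediate early genes stay below 0 and heat shock genes above it.

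Several salivary gland genes were lower in Age8, with large differences between libraries of one age. In the salivary and lacrimal gland list 6 of the 12 tested genes were down-regulated and 1 was up-regulated, beside 6.27% and 6.82% of all genes, and the median log2 fold change was -2.23. Among 21 genes of mucosal secretory cells 2 were down-regulated, near the share of all genes, the median was -1.68, and in 13 the groups did not overlap with Age8 lower, as in 22.7% of all genes. Leaving out Age8 replicate 1 gave 3 of 21 with a median of -2.70. Both lists supplied the gland share and are not judged at equal shares.

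Bpifb1, a secreted protein of airway and middle ear mucosa, made up most of that share and had 96660, 90620 and 90250 CPM in Ctrl and 106400, 258 and 37000 CPM in Age8. It was almost absent in Age8 replicate 2, and it was not a DEG (adjusted p = 0.736). Its level in Age8 replicate 1 rests on that library's TMM factor of 0.589, and without scaling the gland lists held 7.39% of its counts, below every Ctrl library. Bpifb2, a relative made in salivary glands, had 4.29, 1551 and 669.6 CPM in Ctrl and 3.31, 1.37 and 1.64 CPM in Age8 (log2 fold change -8.48, SE 1.98, adjusted p = 0.0168), and Ctrl replicate 1 was far closer to Age8 than to the other Ctrl libraries. Muc19, a gel-forming mucin of salivary glands, had 9.2, 755 and 352 CPM in Ctrl and 10.3, 0.831 and 4.8 CPM in Age8 (log2 fold change -6.15, SE 1.60, adjusted p = 0.0245). Smgc, a submandibular gland protein whose gene lies inside that of Muc19 so that reads may be shared, had 0.474, 50.01 and 26 CPM in Ctrl and 0.13, 0.0639 and 0.109 CPM in Age8, and it was at least 191-fold lower in Age8, where no library exceeded the floor of 3 counts per library.

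The near-identical genes Dcpp1, Dcpp2 and Dcpp3, secreted by salivary glands, belong to one family, and reads may be split among them. Dcpp2 had 1.09, 207 and 88 CPM in Ctrl and 0.39, 0.128 and 0.364 CPM in Age8 (log2 fold change -8.45, SE 1.73, adjusted p = 0.0106). In Bpifb2, Smgc and Dcpp2, Ctrl replicate 1 was far below replicates 2 and 3. Amy1, the amylase of salivary gland that liver also makes, went the other way, with 31.1, 25.7 and 30.6 CPM in Ctrl and 67.6, 62.7 and 63 CPM in Age8 (2.21-fold higher, log2 fold change 1.14, SE 0.11, adjusted p = 0.00193), and its groups did not overlap.

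Genes of ciliated and general epithelium were lower in Age8. In the list of ciliated cells 11 of 19 genes were down-regulated with a median of -1.53, and 16 of 19 without Age8 replicate 1, beside 7.89% of all genes in that fit. Foxj1, the master regulator of motile cilia, had 59.7, 61.1 and 57.1 CPM in Ctrl and 32.6, 7.41 and 18.6 CPM in Age8 (log2 fold change -1.61, SE 0.46, adjusted p = 0.0341). Hydin, a protein of the central pair of the cilium, had 15.8, 11.4 and 14.2 CPM in Ctrl and 7.21, 3.1 and 4.15 CPM in Age8 (log2 fold change -1.53, SE 0.30, adjusted p = 0.00971). Ccdc39, a ruler of axonemal repeats, had 7.78, 6.88 and 7.75 CPM in Ctrl and 2.21, 3.32 and 2.88 CPM in Age8 (log2 fold change -1.41, SE 0.18, adjusted p = 0.00325). In these genes all Age8 libraries lay below all Ctrl libraries, and in Foxj1 and Hydin Age8 replicate 2 was lowest.

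In general epithelium 6 of 20 genes were down-regulated with a median of -1.35, beside 6.27% of all genes. Without Age8 replicate 1 it was 13, beside 7.89% of all genes in that fit. Cdh1, the adhesion protein E-cadherin, had 119, 119 and 125 CPM in Ctrl and 70.3, 51 and 57.5 CPM in Age8 (log2 fold change -1.02, SE 0.15, adjusted p = 0.00417). Epcam, an adhesion molecule of simple epithelia, had 103, 144 and 132 CPM in Ctrl and 72.1, 30.9 and 45.8 CPM in Age8 (log2 fold change -1.35, SE 0.37, adjusted p = 0.0286). Krt7, a keratin of simple and glandular epithelia, had 41.5, 119.8 and 73.6 CPM in Ctrl and 31.1, 7 and 16.2 CPM in Age8 (log2 fold change -2.12, SE 0.63, adjusted p = 0.0382). At equal shares 3 genes of the list were called, Krt7 (log2 fold change -2.70, SE 0.24, adjusted p = 0.0172), Prom1 (log2 fold change -1.81, SE 0.25, adjusted p = 0.0462), a protein of apical protrusions, and Cldn4 (log2 fold change -1.97, SE 0.22, adjusted p = 0.0318), a tight junction protein. In all of them Ctrl replicate 2 was highest. The median of general epithelium at equal shares was -1.11, but -0.03 with the shares in percent and -0.18 with the mean log2 CPM of the lists or the salivary list alone. For ciliated cells the median at equal shares was -1.21, but -0.48, -0.55 and -0.39 in these 3 ways, and edgeR called 0 genes, with 13 of 19 at an unadjusted p under 0.05.

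Krt4, a keratin of moist squamous epithelium such as that of the mouth, had 11.2, 469.7 and 214 CPM in Ctrl and 10.9, 0.543 and 5.35 CPM in Age8 (log2 fold change -5.39, SE 1.42, adjusted p = 0.0257). Tgm3, a transglutaminase that hardens such epithelium, had 0.446, 53 and 21.4 CPM in Ctrl and 0.39, 0.256 and 0.255 CPM in Age8 (log2 fold change -6.41, SE 1.46, adjusted p = 0.0154). Both genes were among the largest falls of the whole comparison, and in each the level in Ctrl replicate 1 was a small part of that in replicate 2.

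Pituitary hormone genes gave the lowest median of the 53 lists, -4.77, with 6 of 7 tested genes down-regulated, beside 6.27% of all genes. Prl, prolactin, had 1405, 103 and 823 CPM in Ctrl and 3.64, 4.98 and 4.66 CPM in Age8 (175-fold lower, log2 fold change -7.45, SE 0.94, adjusted p = 0.00293). Gh, growth hormone, had 913, 93.4 and 519 CPM in Ctrl and 14.9, 21.4 and 19.5 CPM in Age8 (log2 fold change -4.77, SE 0.75, adjusted p = 0.00487). Pomc, the precursor of adrenocorticotropin, had 59.5, 3.71 and 30.9 CPM in Ctrl and 0.195, 0.607 and 0.291 CPM in Age8 (log2 fold change -6.33, SE 1.02, adjusted p = 0.00506). All Age8 libraries lay below all Ctrl libraries, yet within Ctrl replicate 1 had more than 10 times the level of replicate 2 for Prl and Pomc. Of 11 listed genes 4 had too few counts to be tested. At equal shares the median was -2.08, or -0.99 with the shares in percent, and edgeR called 0 genes, with 5 of 7 at an unadjusted p under 0.05.

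Bone forming cells had the highest share of down-regulated genes among the 53 lists. Of 17 genes 15 were down-regulated and 0 up-regulated, with a median log2 fold change of -1.98, beside 6.27% and 6.82% of all genes, and in the same number the groups did not overlap with Age8 lower, as in 22.7% of all genes. Without Age8 replicate 1 it was 14 of 17, with a median of -1.79. The share of counts on the list was 0.418%, 0.184% and 0.309% in Ctrl and 0.0407%, 0.132% and 0.0872% in Age8 (exact p = 0.1).

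Col1a1, the main collagen of bone matrix, had 1100, 597 and 853 CPM in Ctrl and 238, 108 and 164 CPM in Age8 (5-fold lower, log2 fold change -2.32, SE 0.33, adjusted p = 0.00383). Bglap, osteocalcin, a hormone and matrix protein of mature osteoblasts, had 67.1, 42.4 and 52.1 CPM in Ctrl and 7.08, 3.51 and 4.73 CPM in Age8 (10.6-fold lower, log2 fold change -3.41, SE 0.29, adjusted p = 0.00175), and the near-identical Bglap2, with which reads may be shared, had 31.5, 19.1 and 23.2 CPM in Ctrl and 3.77, 2.24 and 2.69 CPM in Age8 (log2 fold change -3.10, SE 0.27, adjusted p = 0.00184). No Age8 library reached the lowest Ctrl library in these genes. Ibsp, bone sialoprotein, had 107, 69.8 and 90.5 CPM in Ctrl and 18.1, 26.6 and 23.1 CPM in Age8 (log2 fold change -1.98, SE 0.19, adjusted p = 0.00193).

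Sp7, the transcription factor osterix that osteoblasts need, had 18.2, 13 and 15.3 CPM in Ctrl and 3.38, 3.83 and 3.02 CPM in Age8 (4.53-fold lower, log2 fold change -2.18, SE 0.19, adjusted p = 0.00184). Runx2, which acts before it in the lineage, had 20.2, 12.7 and 18 CPM in Ctrl and 7.28, 4.86 and 5.68 CPM in Age8 (log2 fold change -1.52, SE 0.22, adjusted p = 0.00396). Dmp1, whose promoter is printed above, had 35.5, 22.1 and 30.1 CPM in Ctrl and 2.79, 9.49 and 7.68 CPM in Age8 (log2 fold change -2.12, SE 0.39, adjusted p = 0.00785). Sost, the osteocyte inhibitor of WNT signalling, had 11.2, 6.48 and 7.54 CPM in Ctrl and 0.195, 1.21 and 0.764 CPM in Age8 (log2 fold change -3.46, SE 0.54, adjusted p = 0.00465). Genes of the osteoblast lineage and of osteocytes were thus among those that fell, and the cell stages behind them cannot be told apart in bulk RNA. The 2 exceptions were Spp1, osteopontin, with 1240, 352 and 859 CPM in Ctrl and 48.2, 902 and 606 CPM in Age8 (adjusted p = 0.599), and Alpl, tissue-nonspecific alkaline phosphatase, with 50.6, 29.5 and 42.7 CPM in Ctrl and 24.8, 35.8 and 31.8 CPM in Age8 (adjusted p = 0.173), both of which other tissues of the ear also make.

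At equal shares the bone median was -1.37. Ibsp (log2 fold change -1.58, SE 0.17, adjusted p = 0.0318) and Sp7 (log2 fold change -1.90, SE 0.26, adjusted p = 0.046) were called, and Bglap and Bglap2 had log2 fold changes of -3.01 and -2.67 with adjusted p of 0.0559 and 0.0598. In all, 12 of the 17 genes had an unadjusted p under 0.05 in that fit, and none of them belongs to a list that supplied the shares.

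Bone resorbing cells and soft connective tissue were lower in part. Among osteoclast genes 5 of 12 were down-regulated, beside 6.27% of all genes, with a median of -1.45. Acp5, the tartrate-resistant phosphatase, had 266, 151 and 211 CPM in Ctrl and 67.2, 75.8 and 69.4 CPM in Age8 (log2 fold change -1.56, SE 0.21, adjusted p = 0.00343). Ctsk, the collagen-degrading cathepsin K, had 177, 83 and 141 CPM in Ctrl and 17.2, 64.8 and 47.3 CPM in Age8 (log2 fold change -1.63, SE 0.46, adjusted p = 0.0313). Both were lower in every Age8 library. Car2, carbonic anhydrase, which cells of the inner ear also use, had 79, 47 and 71.3 CPM in Ctrl and 32.2, 89.9 and 68.8 CPM in Age8 and overlapped between groups.

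In cartilage 3 of 16 genes were down-regulated, beside 6.27% of all genes, with a median of -0.88, and without Age8 replicate 1 it was 5 of 16 with a median of -0.42. Chad, a matrix protein of chondrocytes, had 89, 137 and 104 CPM in Ctrl and 57.7, 30.8 and 42.6 CPM in Age8 (log2 fold change -1.33, SE 0.24, adjusted p = 0.00701), whereas Col11a2, which the tectorial membrane also contains, had 156, 52 and 107 CPM in Ctrl and 10.7, 92.9 and 59.2 CPM in Age8 (adjusted p = 0.321). In fibroblasts 5 of 17 genes were down-regulated, beside the same share of all genes, with a median of -0.66, and all of them encode collagens or matrix proteins. Postn, periostin, had 160.5, 53.5 and 121 CPM in Ctrl and 27.4, 8.4 and 14.8 CPM in Age8 (log2 fold change -2.73, SE 0.50, adjusted p = 0.00747). Col3a1, the fibrillar collagen of soft tissue, had 494, 139.5 and 346 CPM in Ctrl and 88.3, 27.9 and 55.1 CPM in Age8 (log2 fold change -2.52, SE 0.53, adjusted p = 0.0113). Dcn, decorin, overlapped between groups with 612, 260.3 and 451 CPM in Ctrl and 438, 266 and 316 CPM in Age8. At equal shares the medians were -0.38 for osteoclasts, -0.43 for cartilage and -0.07 for fibroblasts. There edgeR called 0 genes of these lists, with 3, 2 and 0 genes at an unadjusted p under 0.05.

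Genes of the cochlea proper were DEGs at shares near those of all genes, 6.82% up and 6.27% down. Of 25 hair cell genes 1 was up-regulated and 0 were down-regulated, with a median of 0.14, and of 22 genes of supporting cells and the tectorial membrane 2 were down-regulated, with a median of -0.25. Of 14 genes of the stria vascularis 1 was down-regulated (median 0.02), and of 7 genes of spiral ligament fibrocytes 0 were DEGs by edgeR or DESeq2 (median -0.09), with 1 at an unadjusted p under 0.05. At equal shares the medians were higher, 0.99 for hair cells, 0.68 for supporting cells, 0.50 for the stria vascularis and 1.25 for the fibrocytes, but 0.61, 0.11, 0.15 and 0.33 with the salivary list alone for the gland share. They were 0.41, 0.10, 0.55 and 0.52 in the fit without shares and without Age8 replicate 1. At equal shares edgeR called 0 genes for hair cells, stria vascularis and fibrocytes, with 2, 3 and 0 at an unadjusted p under 0.05, and 1 for supporting cells.

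Coch, cochlin, the most abundant protein of the spiral ligament, had 1259, 357 and 865 CPM in Ctrl and 28.3, 1744 and 1104 CPM in Age8 (adjusted p = 0.898). Gjb2, the gap junction protein connexin 26, had 199, 79.5 and 144 CPM in Ctrl and 17.2, 339 and 226 CPM in Age8 (adjusted p = 0.701). Kcnj10, the potassium channel of strial intermediate cells, had 44.7, 31.2 and 36.4 CPM in Ctrl and 1.62, 50.7 and 32.5 CPM in Age8 (adjusted p = 0.748). In each of them Age8 replicate 1 was far below every other library and Age8 replicate 2 was the highest of the 6. Differences in these genes could not be detected with libraries this far apart.

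Myo7a, the myosin of hair bundles and a marker of hair cells in the study, had 11, 4.91 and 7.69 CPM in Ctrl and 4.61, 8.95 and 6.22 CPM in Age8 (log2 fold change -0.25, SE 0.33, adjusted p = 0.608). Calb2, calretinin, which hair cells and spiral ganglion neurons contain, had 340.1, 302 and 319 CPM in Ctrl and 2.08, 287 and 183 CPM in Age8 (adjusted p = 0.523). The hair cell DEG was Cib2, a calcium-binding subunit of the mechanotransduction complex that skeletal muscle also expresses, with 49.5, 63.9 and 55.5 CPM in Ctrl and 212, 89.2 and 134 CPM in Age8 (log2 fold change 1.36, SE 0.28, adjusted p = 0.0112; at equal shares log2 fold change 0.98, adjusted p = 0.261). Its level was highest in Age8 replicate 1, the library with the largest muscle share and the fewest cochlear markers, and the cause of its rise was not tested.

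Sox2 and Lfng, the 2 DEGs among the 22 genes of supporting cells and the tectorial membrane, did not follow this pattern. Of the 22 genes 9 had a log2 fold change above 0. The list held 0.00761% of counts in Age8 replicate 1 and 0.107% in Age8 replicate 2. Which cells supplied the reads of Sox2 and Lfng was not tested. Sox2, the transcription factor that marks supporting cells, had 26.3, 30.2 and 29.7 CPM in Ctrl and 12, 10.8 and 10.6 CPM in Age8 (2.59-fold lower, log2 fold change -1.37, SE 0.14, adjusted p = 0.002). The fall was as large in Age8 replicate 1 as in the others and was -1.38 on the log2 scale without it (adjusted p = 0.00239). At equal shares it had a log2 fold change of -1.39 with an adjusted p of 0.0511. Lfng, which tunes Notch signalling in supporting cells, had 19.2, 28.8 and 25 CPM in Ctrl and 9.55, 9.78 and 9.97 CPM in Age8 (2.49-fold lower, log2 fold change -1.32, SE 0.16, adjusted p = 0.00281) and was called at equal shares (log2 fold change -1.67, SE 0.19, adjusted p = 0.036). In Age12 Sox2 had 14.3, 19.5 and 16.8 CPM and Lfng had 11.9, 13.8 and 12.8 CPM, all between the values of Age8 and Ctrl. Shroom3, an apical actin regulator in the list of the stria vascularis, had 20.5, 14.2 and 17.8 CPM in Ctrl and 8.19, 7.06 and 7.61 CPM in Age8 (log2 fold change -1.20, SE 0.19, adjusted p = 0.00504).

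**Figure D3:**
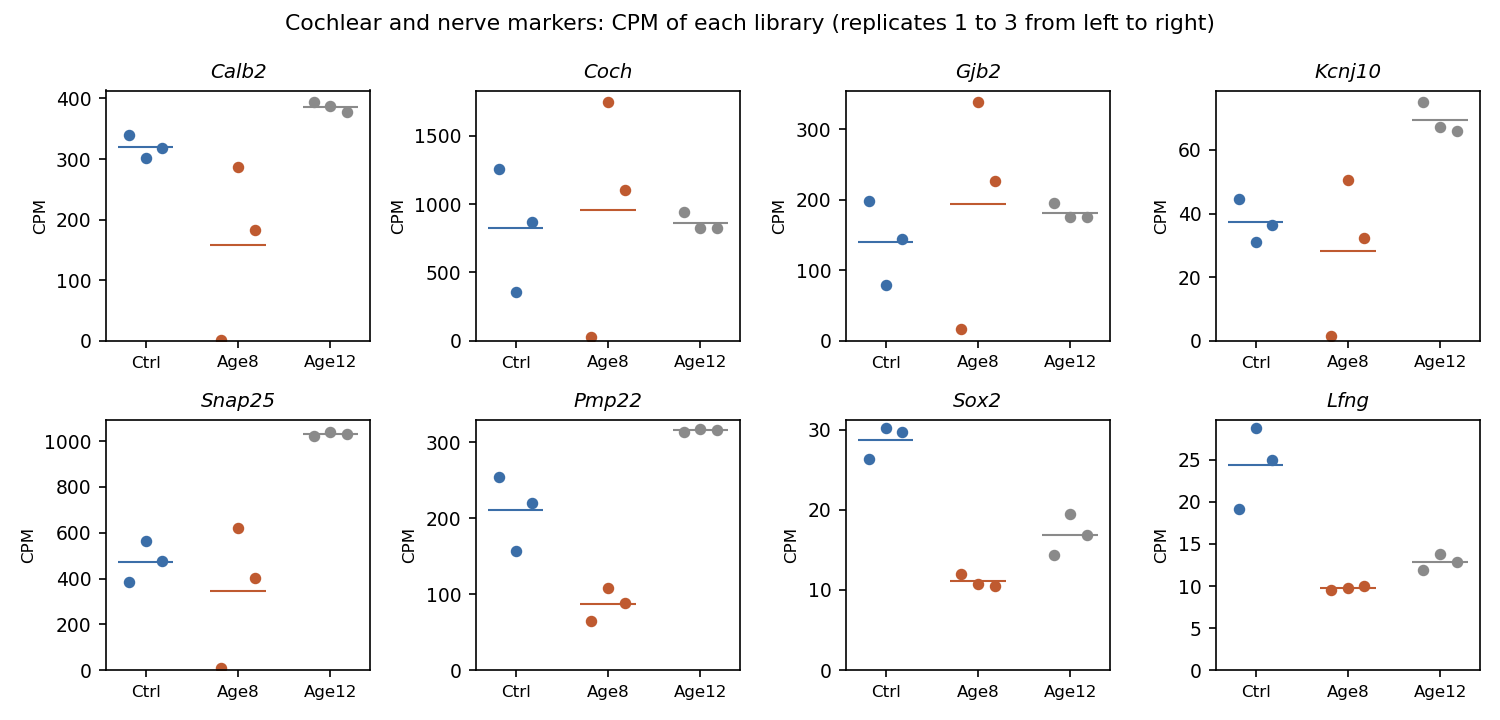
TMM-scaled CPM (vertical axis) of 8 cochlear and nerve markers in each library, replicates 1 to 3 from left to right within Ctrl, Age8 and Age12, with the group mean as a line. Calb2, Coch, Gjb2, Kcnj10 and Snap25 are near 0 in Age8 replicate 1 only, whereas Sox2 (10.6 to 12 CPM) and Lfng are evenly low in all 3 Age8 libraries.

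Neuronal genes showed the same dependence on 1 library. Of 22 genes 0 were DEGs by edgeR or DESeq2 and 0 had an unadjusted p under 0.05, although all 22 had a log2 fold change below 0 and the median was -0.75. Without Age8 replicate 1 the median was -0.20, and at equal shares it was -1.07, or -1.37 to -2.10 with the shares entered in other ways. Snap25, a protein of synaptic vesicle fusion, had 385, 562 and 475 CPM in Ctrl and 9.42, 622 and 403 CPM in Age8 (adjusted p = 0.76). Slc17a7, the glutamate transporter that fills the vesicles of spiral ganglion neurons, had 71.2, 167 and 111 CPM in Ctrl and 1.5, 199 and 130.5 CPM in Age8 (adjusted p = 0.968). Neither gene separated the groups.

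In Schwann cells and peripheral myelin 3 of 17 genes were down-regulated, beside 6.27% of all genes, with a median of -1.0, and in 9 the groups did not overlap with Age8 lower, as in 22.7% of all genes. Pmp22, a membrane protein of peripheral myelin, had 254, 156 and 219.9 CPM in Ctrl and 65.2, 108 and 88 CPM in Age8 (log2 fold change -1.27, SE 0.23, adjusted p = 0.00713). Pllp, plasmolipin, of myelin and epithelia, had 58.2, 86.3 and 65.6 CPM in Ctrl and 28, 20.6 and 23.7 CPM in Age8 (log2 fold change -1.54, SE 0.22, adjusted p = 0.00396). Pmp22 was lowest in Age8 replicate 1, and Pllp was not. At equal shares the list median was -0.50 and Pllp was called (log2 fold change -1.68, SE 0.20, adjusted p = 0.0376).

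Of the immune and marrow lists, those of neutrophils and plasma cells held several up-regulated genes, beside 6.82% of all genes. In red blood cell precursors, T and NK cells, MHC genes and inflammatory cytokines edgeR called 0 genes, with 1 of 16, 2 of 9, 6 of 15 and 1 of 15 at an unadjusted p under 0.05, and DESeq2 called 1 gene, of T and NK cells. Among neutrophils and their precursors 5 of 16 genes were up-regulated and 0 down-regulated, with a median of 2.2, and without Age8 replicate 1 it was 13 of 16 with a median of 2.72. S100a9, a calcium-binding protein of neutrophil cytosol, had 31.7, 118 and 71.8 CPM in Ctrl and 82.6, 543 and 348 CPM in Age8 (log2 fold change 2.13, SE 0.67, adjusted p = 0.0459). Ctsg, the granule protease cathepsin G of promyelocytes, had 0.697, 1.44 and 0.848 CPM in Ctrl and 1.04, 22.4 and 15 CPM in Age8 (log2 fold change 3.69, SE 0.90, adjusted p = 0.0195). The groups overlapped in all 16 genes, with Age8 replicate 1 at or below the highest Ctrl library in each. The median at equal shares was 0.44, but -1.62, -0.33 and -0.47 with the shares in percent, the mean log2 CPM of the lists and the salivary list alone, and edgeR called 0 genes, with 0 at an unadjusted p under 0.05 in the first of these fits.

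Antibody genes were higher in Age8, including replicate 1. Of 10 plasma cell genes 5 were up-regulated with a median of 1.24, beside 6.82% of all genes. Igha, the heavy chain of mucosal IgA, had 14.9, 16.3 and 14.6 CPM in Ctrl and 61.6, 27.2 and 38.1 CPM in Age8 (log2 fold change 1.47, SE 0.29, adjusted p = 0.00928). Jchain, which joins IgA units, had 3.43, 4.91 and 5.38 CPM in Ctrl and 12.8, 9.78 and 10.2 CPM in Age8 (log2 fold change 1.26, SE 0.27, adjusted p = 0.0133). Ighg2c, the heavy chain of IgG2c, had 0.0279, 0 and 0.175 CPM in Ctrl and 2.21, 4.06 and 3.31 CPM in Age8 (adjusted p = 0.00329), with 0 counts in 1 Ctrl library. Ighm, the heavy chain of IgM and the DEG among 11 tested B cell genes, had 32.5, 36.2 and 32.7 CPM in Ctrl and 234, 85.7 and 137 CPM in Age8 (4.49-fold higher, log2 fold change 2.17, SE 0.32, adjusted p = 0.00414). The groups did not overlap in these 4 genes, and the share of counts on the plasma cell list was 0.00601%, 0.00929% and 0.00719% in Ctrl and 0.0121%, 0.0108% and 0.0116% in Age8 (exact p = 0.1). At equal shares Ighm and Igha had log2 fold changes of 1.96 and 1.57 with adjusted p of 0.124 and 0.0796. The medians there were 0.59 for plasma cells, where edgeR called 0 of 10 genes with 4 at an unadjusted p under 0.05, and -0.13 for B cells, whose median was 0.51 before, where it called 0 of 11 with 2 at that p.

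Of 18 macrophage genes 0 were DEGs by edgeR or DESeq2 (median 0.13), with 2 at an unadjusted p under 0.05. C1qa, a complement subunit made by macrophages, had 44.2, 36.4 and 39.3 CPM in Ctrl and 32.2, 44.7 and 41.5 CPM in Age8. Among 24 interferon response genes 0 were DEGs by edgeR or DESeq2 and 1 had an unadjusted p under 0.05, with a median of 0.32. Without Age8 replicate 1 it was 6 up-regulated genes with a median of 0.73, beside 6.5% of all genes in that fit. Ifit1, an antiviral RNA sensor, had 29.8, 27.3 and 29.7 CPM in Ctrl and 9.94, 79.5 and 57 CPM in Age8 (log2 fold change 0.76, adjusted p = 0.355, and 1.28 with adjusted p = 0.00239 without that library). Age8 replicate 1 was below, and Age8 replicates 2 and 3 above, all Ctrl libraries. Cfb, complement factor B, whose gene overlaps Nelfe on the other strand, fell with 11.6, 25.3 and 18 CPM in Ctrl and 9.62, 6.68 and 8.19 CPM in Age8 (log2 fold change -1.17, SE 0.30, adjusted p = 0.023) and was called at equal shares (log2 fold change -1.73, SE 0.21, adjusted p = 0.0414).

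Heat shock genes were higher in Age8. In the heat shock and protein folding list 5 of 13 genes were up-regulated and 0 down-regulated, beside 6.82% and 6.27% of all genes, with a median of 0.79, and in 10 the groups did not overlap with Age8 higher, as in 20.7% of all genes. The median at equal shares was 0.90. Genes of endoplasmic reticulum stress, by contrast, had a median of -0.12 and 0 DEGs among 17 by edgeR (1 by DESeq2, and 5 at an unadjusted p under 0.05), and Hspa5, the main chaperone of that compartment, had 529, 506 and 543 CPM in Ctrl and 534, 546 and 549 CPM in Age8.

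Hspa1a, the inducible cytosolic chaperone whose promoter is printed above, had 43.2, 21.1 and 34 CPM in Ctrl and 75.3, 114 and 93.8 CPM in Age8 (log2 fold change 1.53, SE 0.28, adjusted p = 0.0074). Its near-identical neighbour Hspa1b, with which reads may be shared, had 79, 31.1 and 59.2 CPM in Ctrl and 109, 123 and 113 CPM in Age8 (log2 fold change 1.03, SE 0.33, adjusted p = 0.0467). Hspb1, a small heat shock protein, had 107, 164 and 128 CPM in Ctrl and 388, 329.9 and 327 CPM in Age8 (log2 fold change 1.39, SE 0.19, adjusted p = 0.00343). Cryab, alpha B-crystallin, a small chaperone abundant in muscle, had 299, 657 and 451 CPM in Ctrl and 2392, 1579 and 1869 CPM in Age8 (log2 fold change 2.05, SE 0.31, adjusted p = 0.00434). Bag3, a partner of these chaperones, had 106, 144 and 125 CPM in Ctrl and 324, 252 and 280.1 CPM in Age8 (log2 fold change 1.19, SE 0.15, adjusted p = 0.00314). Every Age8 library was above every Ctrl library in all 5 genes. For Hspa1a and Hspa1b this rests on the TMM factors, 0.589 in Age8 replicate 1 and 1.11 in Ctrl replicate 1. Before that scaling Age8 replicate 1 was below Ctrl replicate 1 in both. It had 1159 and 1679 of 26473126 counts, and Ctrl replicate 1 had 1552 and 2836 of 33045923.

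At equal shares Hspa1a (log2 fold change 2.49, SE 0.31, adjusted p = 0.0428), Hspa1b (log2 fold change 2.35, SE 0.31, adjusted p = 0.0452) and Hsph1 (log2 fold change 1.11, SE 0.15, adjusted p = 0.046) were called. Hsph1, a nucleotide exchange factor for Hspa1a, had 148, 132 and 147 CPM in Ctrl and 266, 291 and 287 CPM in Age8, just under the 2-fold limit without the shares (log2 fold change 0.98, adjusted p = 0.00223). Cryab and Hspb1 had log2 fold changes of 1.21 and 1.10 at equal shares, with adjusted p of 0.0621 and 0.0722.

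Immediate early genes, which respond to stimuli within minutes, had lower levels in Age8. Of 13 genes 7 were down-regulated and 0 up-regulated, beside 6.27% and 6.82% of all genes, with a median of -1.37. Junb, a subunit of the AP-1 transcription factor, had 109, 101 and 105 CPM in Ctrl and 35, 24.6 and 29.4 CPM in Age8 (3.54-fold lower, log2 fold change -1.82, SE 0.17, adjusted p = 0.00184). Fos, its usual partner, had 72.4, 47.3 and 68.5 CPM in Ctrl and 25.2, 13.8 and 17.5 CPM in Age8 (log2 fold change -1.74, SE 0.24, adjusted p = 0.00371). Dusp1, a phosphatase that ends MAP kinase signals, had 204, 162 and 191 CPM in Ctrl and 90.1, 57.9 and 67.6 CPM in Age8 (log2 fold change -1.37, SE 0.18, adjusted p = 0.00343). None of the 3 genes overlapped between groups. Nr4a1, an early gene abundant in active muscle, did overlap, with 288, 314 and 299 CPM in Ctrl and 355, 98.7 and 190.4 CPM in Age8 (adjusted p = 0.382).

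Junb was called at equal shares (log2 fold change -1.55, SE 0.14, adjusted p = 0.0172), although reads of the overlapping Prdx2 on the other strand could not be told apart from its own if strand was ignored. The list median there was -0.96, or -0.59 to -0.70 with the shares entered in other ways, and Ier2, another early gene, had a log2 fold change of -1.63 with an adjusted p of 0.0589.

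Several clock genes were lower in Age8. Of 15 genes 5 were down-regulated and 1 was up-regulated, beside 6.27% and 6.82% of all genes, and the median of -0.52 was -0.15 without Age8 replicate 1. Bmal1, the activator of the loop, rose from 3.34, 5.5 and 3.8 CPM to 15.4, 10.8 and 12 CPM (log2 fold change 1.59, SE 0.22, adjusted p = 0.00364). The 5 genes that fell are activated by Bmal1 through E-boxes and, with the exception of Dbp, repress the loop. Nr1d1, the nuclear receptor REV-ERB alpha, had 128, 152 and 130 CPM in Ctrl and 54.7, 47.6 and 49.6 CPM in Age8 (log2 fold change -1.43, SE 0.11, adjusted p = 0.00164). Per3 had 57.5, 44 and 54.4 CPM in Ctrl and 16.8, 17.8 and 17.2 CPM in Age8 (log2 fold change -1.59, SE 0.12, adjusted p = 0.00117), Dbp, an output transcription factor, had 175, 168 and 169 CPM in Ctrl and 44.5, 61.1 and 55.5 CPM in Age8 (log2 fold change -1.67, SE 0.15, adjusted p = 0.00184), and Ciart, whose promoter is printed above, had 21.3, 18.4 and 18 CPM in Ctrl and 4.09, 8.31 and 6.26 CPM in Age8 (log2 fold change -1.62, SE 0.24, adjusted p = 0.00431).

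For each of these genes Ctrl and Age8 were fully apart. Per2 was the last of the 5 with 56.7, 46 and 51.7 CPM in Ctrl and 22.1, 26.7 and 27.2 CPM in Age8 (log2 fold change -1.02, SE 0.14, adjusted p = 0.00362), and Per1 fell short of the fold limit (log2 fold change -0.96, adjusted p = 0.00193). At equal shares Nr1d1 (log2 fold change -1.54, SE 0.14, adjusted p = 0.0187) and Per3 (log2 fold change -1.29, SE 0.15, adjusted p = 0.036) were called, and Dbp and Bmal1 had log2 fold changes of -1.51 and 1.04 with adjusted p of 0.0598 and 0.112. Nr1d1 overlaps Thra on the other strand.

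Other lists moved in part. In smooth muscle and pericytes 3 of 13 genes were down-regulated, beside 6.27% of all genes. Acta2, the actin of smooth muscle, had 771, 414 and 599.7 CPM in Ctrl and 299, 112 and 178 CPM in Age8 (log2 fold change -1.60, SE 0.45, adjusted p = 0.0315). In the same list 2 genes were up-regulated, Synpo2 and Abcc9, which skeletal muscle also expresses. The list median was -0.54, and 0.07 at equal shares. Acta2 turned direction when the shares were entered in other ways, as given at the end. In sensory neurons of pain and taste ganglia 3 of 11 genes were down-regulated, beside 6.27% of all genes, but without Age8 replicate 1 it was 1 gene down and 1 up. Among the 3 was Trpv1, the capsaicin receptor, with 1.34, 0.338 and 0.76 CPM in Ctrl and 0.065, 0.287 and 0.218 CPM in Age8 (log2 fold change -1.97, SE 0.57, adjusted p = 0.0351). In proliferation 2 of 23 genes were up-regulated, near the 6.82% of all genes, Tpx2 and Aurkb, both of the mitotic spindle, with a list median of 0.76. In cell cycle arrest and senescence 2 of 10 genes were down-regulated, beside 6.27% of all genes, among them Glb1, whose values are given below. The median of that list was -0.20, and 0.16 at equal shares.

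Ucp1, the uncoupling protein of brown fat, was the DEG among 12 fat genes, with 254, 30.6 and 159.9 CPM in Ctrl and 42.4, 12.4 and 22 CPM in Age8 (log2 fold change -2.54, SE 0.73, adjusted p = 0.0345). The list median was -1.09. Without Age8 replicate 1 it was -1.70 with 4 down-regulated genes, beside 7.89% of all genes in that fit. At equal shares the median was 0.21, and edgeR called 0 fat genes, with 0 at an unadjusted p under 0.05. Th, tyrosine hydroxylase, was the DEG among 12 spiral ganglion genes, with 1.62, 6.17 and 3.24 CPM in Ctrl and 0.455, 1.09 and 1.09 CPM in Age8 (log2 fold change -2.02, SE 0.51, adjusted p = 0.0215). Of 11 RNA-binding proteins that the study names, 2 were up-regulated, Rbm24 and Rbm38, beside 6.82% of all genes. Both act in muscle differentiation. Rbm38 had 22.5, 84.1 and 45.1 CPM in Ctrl and 275, 99 and 166 CPM in Age8 (log2 fold change 1.83, SE 0.51, adjusted p = 0.0301). It turned direction with the shares in percent and with the mean log2 CPM of the lists.

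In endothelium, red blood cell precursors, melanocytes, MHC class I and II, and cytokines and chemokines edgeR and DESeq2 called 0 genes, with 3, 1, 1, 6 and 1 genes at an unadjusted p under 0.05. In T cells and NK cells edgeR called 0 and DESeq2 called 1 of 9 genes.

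Of the 96 DEGs called in both fits, 7 belong to the lists that supplied the shares, which leaves 89, of which 31 rose and 58 fell. The groups were at least 2-fold apart, lowest against highest library, for 26 of the 31 and 24 of the 58. Among the genes that fell, 15 had a level at least 4-fold higher in Ctrl replicate 2 than in replicate 1, as had 3 of those that rose. More broadly, 1248 of the 2441 DEGs (51.1%) kept their direction with a fold change of at least 2 at equal shares, called or not, and 13 changed direction.

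Of the 12 largest rises called in both fits, 7 are given first, chosen after their values were seen. Slc30a2, a zinc exporter of secretory vesicles (chr4:134070234-134081795), had 0.502, 1.07 and 0.614 CPM in Ctrl and 35.4, 22.8 and 25.6 CPM in Age8 (38.2-fold higher, log2 fold change 5.25, SE 0.32, adjusted p = 0.00105). It was called at equal shares (log2 fold change 4.56, SE 0.33, adjusted p = 0.0106), and it overlaps Extl1 on the other strand. In Age12 its level was 6.62, 7.54 and 7.14 CPM, between the other groups.

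Ttll7, a ligase that adds glutamate chains to tubulin (chr3:146557901-146690155), had 34.1, 34.8 and 37.4 CPM in Ctrl and 132, 135 and 127 CPM in Age8 (3.71-fold higher, log2 fold change 1.89, SE 0.10, adjusted p = 0.00062; at equal shares log2 fold change 1.77, SE 0.15, adjusted p = 0.0153). Its Age12 level of 122, 109 and 107 CPM was close to that of Age8. Tmem100, a membrane protein of endothelium and sensory neurons (chr11:89921122-89928844), had 9.92, 11.9 and 10.03 CPM in Ctrl and 48.2, 56.9 and 54.6 CPM in Age8 (5.02-fold higher, log2 fold change 2.33, SE 0.13, adjusted p = 0.00062; at equal shares log2 fold change 2.06, SE 0.17, adjusted p = 0.0153) and 25.7, 21.8 and 22.6 CPM in Age12.

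Fkbp5, a chaperone of steroid receptors that glucocorticoids induce (chr17:28618058-28737521), had 53.1, 46 and 49.95 CPM in Ctrl and 132, 148 and 141 CPM in Age8 (2.82-fold higher, log2 fold change 1.50, SE 0.11, adjusted p = 0.00117; at equal shares log2 fold change 1.72, SE 0.15, adjusted p = 0.0172). Its Age12 level was 34.7, 38.9 and 39.2 CPM, below Ctrl. Rab40b, a small GTPase (chr11:121246948-121279098), had 5.46, 4.91 and 5.47 CPM in Ctrl and 27.2, 21.4 and 21.4 CPM in Age8 (4.41-fold higher, log2 fold change 2.14, SE 0.14, adjusted p = 0.0011; at equal shares log2 fold change 2.14, SE 0.28, adjusted p = 0.0439). Tmem132b, a membrane protein of the nervous system (chr5:125608838-125869647), had 2.54, 1.01 and 1.49 CPM in Ctrl and 13.3, 16.8 and 16.8 CPM in Age8 (9.27-fold higher, log2 fold change 3.21, SE 0.33, adjusted p = 0.002; at equal shares log2 fold change 4.21, SE 0.34, adjusted p = 0.014).

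Plcl1, a phospholipase C relative without catalytic activity (chr1:55445080-55793444), had 7.44, 5.5 and 6.08 CPM in Ctrl and 15, 20.03 and 19.3 CPM in Age8 (log2 fold change 1.51, SE 0.17, adjusted p = 0.00227; at equal shares log2 fold change 1.92, SE 0.23, adjusted p = 0.0378). Over 4 ways of entering the shares (log2, percent, the mean log2 CPM of the lists, and the salivary list alone) the log2 fold change stayed between 4.38 and 4.74 for Slc30a2, 1.59 and 1.77 for Ttll7, 1.69 and 2.06 for Tmem100, 1.72 and 2.0 for Fkbp5, 1.99 and 2.17 for Rab40b, 4.12 and 4.41 for Tmem132b and 1.87 and 2.23 for Plcl1. Each was called in 1 or 2 of the 4 ways.

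Other genes that rose in both fits, named here after their values were seen, are known from skeletal muscle but were not in the list that supplied the share. They include Neb, Unc45b, a chaperone of myosin, Ppp1r3a and Ppp1r3c, which direct glycogen synthesis, Gyg, which primes it, Asb5, and Mettl21c, a methyltransferase of muscle fibres. Mettl21c had 0.613, 5.04 and 2.13 CPM in Ctrl and 175, 46.5 and 92.1 CPM in Age8 (40.4-fold higher, log2 fold change 5.33, SE 0.80, adjusted p = 0.00422; at equal shares log2 fold change 3.20, SE 0.40, adjusted p = 0.0428). Ppp1r3c had 23.2, 74.3 and 47.9 CPM in Ctrl and 674, 463 and 512 CPM in Age8 (11.3-fold higher, log2 fold change 3.50, SE 0.40, adjusted p = 0.00253; at equal shares log2 fold change 2.36, SE 0.18, adjusted p = 0.0113). Their fold changes moved more with the way the shares were entered, between 1.81 and 3.57 for Mettl21c, 1.55 and 2.43 for Ppp1r3c, 0.50 and 1.42 for Neb, 0.54 and 1.36 for Unc45b, 0.19 and 1.37 for Ppp1r3a, 0.14 and 1.13 for Gyg and -0.32 and 1.26 for Asb5, which thus turned direction with the shares in percent.

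**Figure D4:**
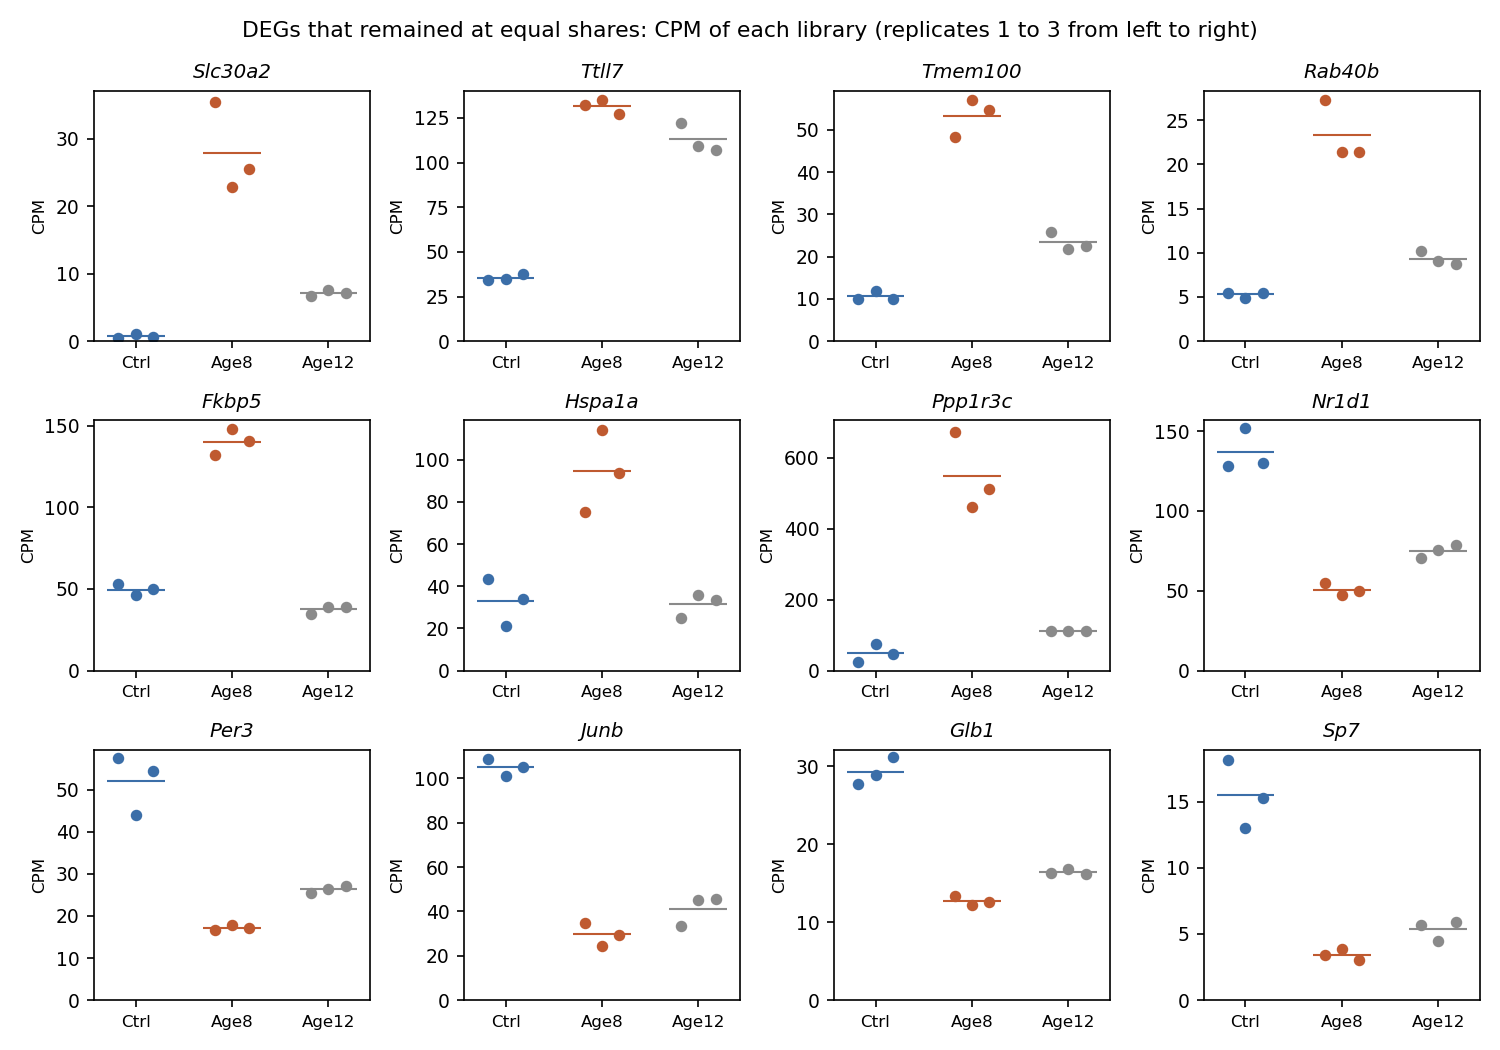
TMM-scaled CPM (vertical axis, from 0) of 12 genes called in both fits, replicates 1 to 3 from left to right in Ctrl, Age8 and Age12, with the group mean as a line. In every panel the 3 Age8 points are clear of the 3 Ctrl points, and in Slc30a2, Ttll7 and Nr1d1 points of one group nearly coincide.

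Among the genes that fell, Glb1, the lysosomal beta-galactosidase used as a stain for senescent cells (chr9:114230144-114303966), had 27.8, 28.9 and 31.2 CPM in Ctrl and 13.4, 12.2 and 12.6 CPM in Age8 (2.3-fold lower, log2 fold change -1.20, SE 0.10, adjusted p = 0.00164; at equal shares log2 fold change -1.26, SE 0.15, adjusted p = 0.0393). Its log2 fold change lay between -1.26 and -1.23 over the 4 ways of entering the shares. Those of Nr1d1 lay between -1.54 and -1.44, of Lfng between -1.77 and -1.65, of Sp7 between -2.0 and -1.78 and of Ibsp between -1.75 and -1.39. Each of these 5 genes was called in 1 of the 4 ways, and each was lower in all 3 Age8 libraries than in Ctrl.

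The largest falls at equal shares were less even among libraries. Tgm3, Krt4, Klk13, a secreted protease of salivary gland, and Chit1, a chitinase of macrophages, had log2 fold changes of -10.56, -8.73, -7.03 and -4.75. In each the highest Ctrl level was many times the lowest, as with 2.01, 19.5 and 8.65 CPM for Chit1, against 1.89, 0.287 and 0.91 CPM in Age8. Alox15, a lipoxygenase of airway epithelium and macrophages, had 4.46, 21.6 and 11.6 CPM in Ctrl and 3.44, 0.703 and 2.15 CPM in Age8 (at equal shares log2 fold change -3.66, SE 0.28, adjusted p = 0.0113).

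**Figure D5:**
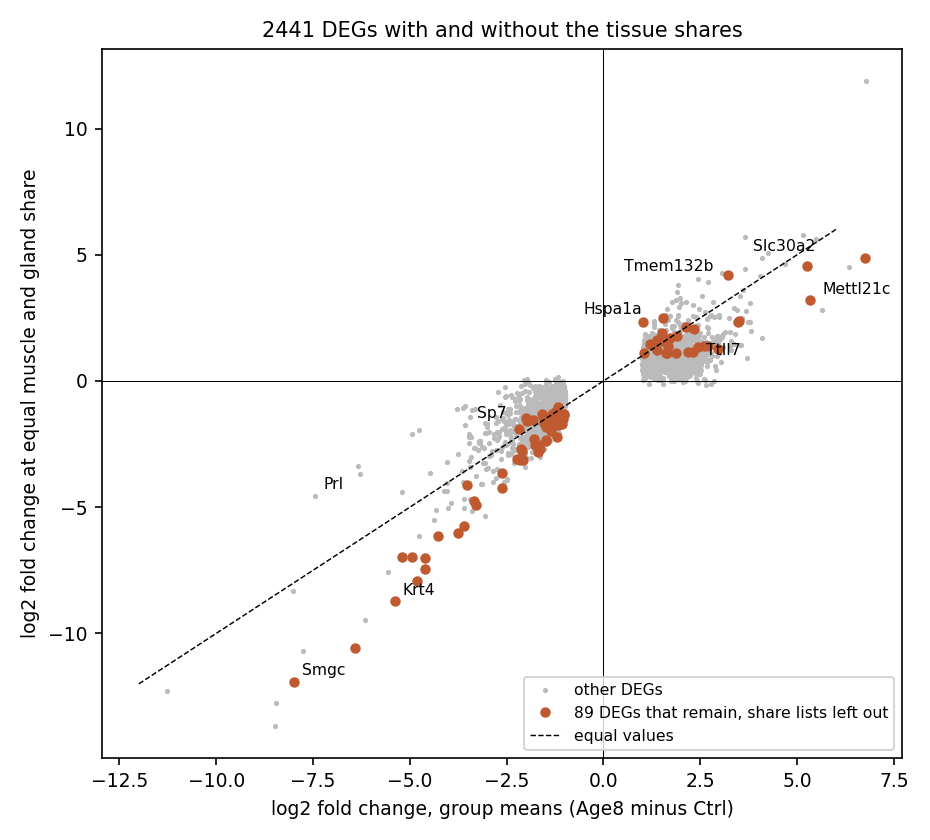
Log2 fold change of each of the 2441 DEGs from the group means (horizontal) against that at equal muscle and gland shares (vertical), with the 89 DEGs called in both fits and outside the share lists in orange and equal values dashed. Of the 1272 up-regulated DEGs, 1129 lie below the dashed line, and genes such as Krt4 lie further from 0 at equal shares.

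The count of 96 genes depended strongly on the libraries and on the way the shares were entered. It was 977 without Age8 replicate 1, 432 without Age12 replicate 1 and between 0 and 18 without any other library. It was 0 with only the 6 libraries compared, with replicates 1 and 2, with shares in percent and with the mean log2 CPM of the lists. No gene of the 89 was called in more than 6 of the 8 alternatives that kept all 9 libraries, among which were the ways that gave 0. With the muscle share alone as a term 251 genes were called, and with the gland share alone 2132, beside the 2441 without either. Without Age8 replicate 1 and without the shares, 2766 genes were DEGs, of which 1865 were among the 2441.

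Some genes named above share their position with another expressed gene, and whether the counting used the strand was not stated. On the opposite strand Aldoa overlaps Tlcd3b, Atp2a1 Rabep2, Cryab Hspb2, Dbp Sphk2, Dusp1 Ergic1, Chad Acsf2, Runx2 Supt3, Ccdc39 Ttc14, Pfkm Senp1, Tpi1 Spsb2, Gapdh Iffo1 and Myh4 the antisense RNA Myhas. On the same strand Sox2 lies within Sox2ot, Cpt1b overlaps Gm44502 and Amy1 overlaps Rnpc3. Values of these genes are uncertain to the extent that reads of the partner were counted.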

How the data were processed

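Cochlear RNA of 9 libraries was sequenced by the authors, 3 each of Ctrl, Age8 and Age12, assigned to groups by their labels. The authors trimmed reads with FASTX-Toolkit, used HISAT2 for alignment to GRCm39, dropped reads that did not map uniquely, and deposited the counts per gene without normalization, along with FPKM for 32007 of the 32066 genes. The counting program, the annotation and the use of strand are not given in the sources used here, so overlapping and near-identical genes are uncertain. There were 0 unused columns of per-sample values.

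Counts were tested in R 4.3.3 with edgeR 4.0.16 (glmQLFit and glmQLFTest, TMM factors, filterByExpr, 3 groups, Benjamini-Hochberg adjustment). All 9 libraries entered the fit, with 6 residual degrees of freedom, or 4 with both shares as terms, which count each library as independent. SE was the log2 fold change divided by the square root of F. Single values were compared with two-sided exact permutation tests. At most 3 counts in each library of a group were the floor. Alternatives were RLE and upper-quartile factors, other filters, all chromosomes, 6 libraries, a replicate block, each library left out, DESeq2 1.42.0, limma 3.58.1 on FPKM, no fold limit and other share terms. The procedure was tested on simulated data.

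The named genes were the study's genes (Myo7a and Sox2 are given), the 3 most abundant members (mean CPM) in each of 53 lists, the 12 largest rises and falls of protein-coding DEGs whose mean reached 1 CPM and whose groups had no overlap, the same among DEGs called in both fits, and list members where a count is broken down. Lists came from general knowledge of the tissues, and members and lists were chosen with earlier results of these data known. Coordinates and promoters were read from GRCm39 with its GENCODE annotation, not from the RefSeq promoter table, which was not used here. Figures were drawn with Python 3.11.15, pandas 2.3.3 and matplotlib 3.10.9. Total counts of 26473126 to 34382753 per compared library were taken as depth. Some genes that the rule names are not reported here.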

Additional observations from a re-analysis of the deposited data

Results flagged for a closer look

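Genes on chrX and chrY were outside the tests, yet the Y-linked genes had a signal in Age8 above that in Ctrl. Ddx3y had a mean of 37.3 CPM in Age8 and 0.2 CPM in Ctrl, Uty had 3.69 CPM and 0.037 CPM, Eif2s3y had 37.6 CPM and 0.2 CPM, and Kdm5d had 7.66 CPM and 0.0472 CPM. In all 4 genes every Age8 library was above every Ctrl library (p = 0.1 for each by the two-sided exact permutation test, as low as this design allows). The X-linked Xist had 244, 223 and 241 CPM in Ctrl and 0.715, 0.351 and 0.619 CPM in Age8. The part of this difference in the other results was not tested, since it cannot be told apart from age in these 6 libraries. The groups of 3 libraries are too small for a check of single libraries by their gap to the others.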

How the results depend on the processing

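Every count was recomputed with 1 choice changed, except that limma on FPKM changes test, unit and scaling together. DESeq2 changes test and scaling, with a median log2 fold change of -0.087 over all genes, as with RLE factors. On libraries 1 and 2 it changes the libraries as well. The number of DEGs, 2441, lay between 2047 and 2941 with RLE or upper-quartile factors, no filter, a minimum of 10 counts, all chromosomes, DESeq2, the gland share as a term and any Age12 library left out. It was 1431 with only the 6 libraries compared, 0 with libraries 1 and 2 of each group (1007 with DESeq2, added after seeing the data), 1394 by limma on log2(FPKM + 1), 3097 on log2(FPKM + 0.1), 5359 without a fold limit, 251 with the muscle share and 129 with both shares as terms. Leaving out each library gave 1306 (without Ctrl replicate 3) to 2880 (without Ctrl replicate 2), with 1468 without Age8 replicate 3. The share of up-regulated calls, 52.1%, was 32.6% by limma on log2(FPKM + 1), where 455 rose and 939 fell, and 20.6% on log2(FPKM + 0.1), and 73.4% without Age8 replicate 3. The cause of these differences was not tested.

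At equal shares the 129 calls and the 96 in both fits became 251 and 187 with RLE factors, 333 and 259 with a minimum of 10 counts, and 25 and 14 with the salivary list alone. They were 0 and 0 with 6 libraries, with libraries 1 and 2, with shares in percent and with the mean log2 CPM of the lists. Leaving out each library gave 0 to 1749 and 0 to 977, both highest without Age8 replicate 1 (784 and 432 without Age12 replicate 1). The replicate numbers were also entered as a replicate block. It gave 1689 DEGs (903 up, 786 down), and 1049 and 467 at equal shares. Deviations of same-numbered Ctrl and Age8 libraries correlated over genes with r = 0.0683, 0.0377 and 0.141, so the samples share only a number.

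Of 3445 recomputed values of named genes, 2545 kept direction and side of the threshold, 793 lost the call, 26 gained it and 81 turned direction, and of 840 list medians 714 moved by less than 1 SD between replicates, 108 by more and 18 turned. That SD, on the log2 scale, was 1.22 for hair cells, 1.44 for stria vascularis, 1.74 for spiral ligament fibrocytes and 1.77 for neurons, so sizeable moves count as small there. In all 66 medians changed sign, 50 of them in lists whose reported median lay within 1 SD of 0, such as supporting cells (0.68 with both shares), hair cells (-0.42 with the gland share) and the neuromuscular junction (-0.27 with both shares). Of the 18 medians counted as turned, 2 were at 0 or rounded to it and are not among the 66. Those that turned from beyond 1 SD were slow muscle (-0.32 with the muscle share, -0.13 with both, -1.41 in percent, -0.74 with the mean log2 CPM and -0.15 with the salivary list), sarcomere and triad (-0.82 and 0 in percent and with the mean log2 CPM), myogenesis (-0.57 in percent), osteoclasts (0.26 and 0.19), cartilage (0.21 in percent), fibroblasts (0.13, 0.06 and 0.07), Schwann cells (0 in percent) and neutrophils (-1.62, -0.33 and -0.47), in the same order of settings. Single genes that turned, as log2 fold changes, were these. RLE factors gave 0.01 for C1qa. No filter beyond 1 count gave 0 for Hspa5. DESeq2 gave 0.02 for C1qa. The test by limma on log2(FPKM + 1) gave -1.24 for Coch, -0.55 for Gjb2 and -0.33 for Hspa5. The test by limma on log2(FPKM + 0.1) gave -1.32 for Coch, -0.63 for Gjb2, -0.33 for Hspa5 and -0.07 for Ifit1. The muscle share alone gave 0.23 for Alpl, 0.26 for C1qa, 0.72 for Car2, -0.44 for Chrna1, 0.62 for Col11a2, 0.41 for Dcn, 0.39 for Kcnj10, 0.76 for Myo7a and 1.10 for Spp1. The gland share alone gave -0.62 for Coch and -0.26 for Gjb2. Both shares on the log2 scale gave 0.11 for Alpl, 0.13 for C1qa, 0.45 for Car2, -0.29 for Chrna1, 0.05 for Col11a2, 0.50 for Dcn, 0.47 for Myo7a and 0.44 for Spp1. Shares in percent gave 1.11 for Acta2, -0.04 for Aldoa, 0.38 for Alpl, -0.32 for Asb5, 0.10 for C1qa, 0.90 for Car2, -1.03 for Chrna1, 0.66 for Col11a2, 0.84 for Dcn, 0.32 for Gh, -0.02 for Hspa5, 0.74 for Myo7a, -0.60 for Pfkm, -0.96 for Rbm38, -0.58 for Rpl3l, -0.47 for S100a9, 0.20 for Shroom3, 0.88 for Spp1 and -0.14 for Synpo2. The mean log2 CPM of the lists gave 0.53 for Acta2, 0.13 for Alpl, 0.06 for C1qa, 0.54 for Car2, -0.50 for Chrna1, 0.14 for Col11a2, 0.65 for Dcn, -0.01 for Hspa5, 0.39 for Myo7a, -0.04 for Rbm38 and 0.52 for Spp1. The salivary list alone gave 0.34 for Acta2, 0.11 for Car2, -0.06 for Chrna1, 0.69 for Dcn, -0.07 for Ifit1, 0.14 for Myo7a and 0.03 for Nr4a1. With each library left out in turn the values ranged from -0.12 to 0.16 for C1qa, -0.37 to 0.32 for Car2, -0.54 to 0.83 for Coch, -0.20 to 1.05 for Gjb2, -0.03 to 0.11 for Hspa5, -1.11 to 0.20 for Kcnj10, -0.53 to 0.07 for Myo7a, -0.81 to 0.55 for Slc17a7 and -1.19 to 0.16 for Snap25. Most of these genes were not DEGs, and the cause was not tested. Depth limits genes at the floor of 3 counts per library, and intervals of counts cover counting error only.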
